A study of Mus musculus with 31 samples.

Results

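The enzymes of purine nucleotide synthesis were followed in Ba/F3 cells, a mouse lymphoid line that grows on interleukin-3. The 10 genes were taken by symbol from both gene tables, which list 41255 symbols, and all 10 passed the filter on low values in every comparison. In all clones, controls included, endogenous Rpl10 had been knocked down by shRNA and human RPL10 cDNA was expressed from a retrovirus, as the wild-type form in WT clones and as the arginine-to-serine form R98S, known from T-cell leukemia, in R98S clones. Each clone was grown from a single cell and was selected for strong knockdown. R98S clones 11, 13 and 35 gave 9 total mRNA and 8 polysomal libraries, and WT clones 28, 29 and 36 gave 8 total mRNA and 6 polysomal libraries, labelled with replicate numbers 1 to 3. Polysomal RNA was taken from the sucrose gradient fractions of mRNA that carried 2 or more ribosomes, and 14 cultures had both kinds of library. The question was whether R98S and WT cells differed in the total level, the polysomal level or the polysomal-to-total ratio of these enzymes, and how Gart compared with its neighbours in the pathway.

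Cells build purines on phosphoribosyl pyrophosphate (PRPP), which Prps1 makes from ribose 5-phosphate. Ppat commits PRPP to the pathway, and Gart, Pfas, Paics, Adsl and Atic then build the ring up to inosine monophosphate (IMP). Gart is a trifunctional enzyme that acts both before and after Pfas. Impdh1, Impdh2 and Gmps turn IMP into GMP, and Adsl acts a second time on the branch to AMP. Growing lymphoid cells lean on this pathway for nucleic acid synthesis.

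The members lie on 9 chromosomes of the mouse genome (GRCm38, the build of the files). Gart lies on the minus strand at chr16:91621186-91646952, and its start is 554 bases from the start of Son, a splicing factor gene on the other strand. Ppat (chr5:76913249-76951578, minus strand) and Paics (chr5:76951307-76967509, plus strand) are the first and a later enzyme of the pathway and lie head to head, with 272 bases of exon in common. The start regions are shown because the results below ask whether such neighbours moved together. RefSeq promoter windows (GRCm38.p6, from 250 bases before to 50 after the start) were found for 9 of the 10 members, without Pfas. The E-box CACGTG, a palindrome read by MYC and related factors, was present in 3 of these 9 genes and in 7.15% of 32851 promoter windows. CCAAT, searched on both strands, was present in 5 of the 9 genes and in 37.41% of all windows. The NRF1-type palindrome and TGATGCAA (C/EBP-ATF type), searched on both strands, were found in 0 of the 9, beside 0.97% and 0.89% of all windows. Below, the capitals mark the E-box in the first 3 lines and CCAAT in the last 2, each given 5′ to 3′ on the strand of the gene.

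Paics, plus strand, chr5:76951087-76951116: cgcctcggaaagCACGTGgagggacctgct
Impdh2, plus strand, chr9:108560314-108560343: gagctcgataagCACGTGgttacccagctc
Atic, plus strand, chr1:71557137-71557166: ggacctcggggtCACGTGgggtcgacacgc
Paics, plus strand, chr5:76951267-76951295: tcccgctctccgCCAATcagctagggcaa
Gart, minus strand, chr16:91646989-91647017: ggcgggctgcggCCAATgagcagccgagt

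Total mRNA libraries held 9338671 to 22059792 reads and polysomal libraries 8831180 to 20754046, so that the members were far above the filter in every library. The values are normalized read counts, scaled separately in each table, so a ratio across the tables is relative to the average gene. The interleukin-3 receptor chain Csf2rb had a mean of 69570 in total mRNA. Of 10 B-lymphoid markers, Ptprc, Cd79a and Cd79b had a mean of at least 10, and the B-lineage factor Pax5 was at 0 in all total mRNA libraries. The mast cell and basophil list was led by the transcription factor Gata2 with a mean of 20881. Its other members were far lower, with means of 450 for Cpa3, 218 for Mcpt8, 87.2 for Ms4a2, 1.26 for Fcer1a and 0.11 for Kit. The summed total mRNA level of this list, mostly Gata2, lay between 14264 and 25456 in R98S and between 18493 and 29120 in WT libraries. Of the 7 marker lists, 2 separated the genotypes in a fraction. The summed level of the 3 interleukin-3 receptor genes lay between 104846 and 217687 in R98S and between 52035 and 92520 in WT total mRNA. The summed level of the 6 T-lymphoid markers, which are low here with a highest mean of 46.1 for Lck, lay between 85.0 and 360.0 in R98S and between 37.0 and 72.5 in WT polysomal RNA. The part of these differences in the results was not tested. Mouse Rpl10 was not called in total mRNA (log2 fold change -0.08 ± 0.32 SE, adjusted p = 0.885), and it may also collect reads of the human cDNA, so it is no clean check of the knockdown. In polysomal RNA Rpl10 was called lower in R98S (-1.20 ± 0.36, adjusted p = 0.0490, and -1.12 ± 0.17, adjusted p = 0.000198 with the replicate number as a block), and it was called in 14 of 22 alternatives. In TE it was not called (-0.91 ± 0.57, adjusted p = 0.867). For WT clone 36 with number 1, the study left the total mRNA library out because it grouped with R98S in a principal component analysis, and it was not analysed here, so calls in total mRNA are conditional on that choice.

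In total mRNA the members spanned about an order of magnitude in level per kilobase of exon. Paics had the highest mean in WT total mRNA, at 2227 ± 387 normalized counts per kb (SD, n = 8). Impdh2, the main IMP dehydrogenase of growing cells, followed at 1679 ± 198 and overlapped Paics within 1 SD, and Prps1 was at 884 ± 202. Impdh1 (394 ± 101), Ppat (382 ± 121), Atic (343 ± 137), Gart (322 ± 178), Gmps (295 ± 45.5), Adsl (232 ± 81.2) and Pfas (178 ± 74.8) followed, and among these 7 each overlapped the next within 1 SD, while Impdh1 did not overlap Prps1 above it. The same 3 genes led in R98S total mRNA, with Paics at 1699 ± 121 (n = 9), Impdh2 at 1464 ± 228 and Prps1 at 646 ± 95.5. There too Paics and Impdh2 overlapped within 1 SD. In WT polysomal RNA the mean of Impdh2 (2854 ± 515) was above that of Paics (2432 ± 270), again with overlap. In polysomal RNA Pfas, which makes the formylglycinamidine intermediate, was set apart at the bottom, at 34.4 ± 8.50 in R98S (n = 8) and 46.8 ± 31.9 in WT (n = 6). In R98S polysomal RNA Gart came next above it at 196 ± 58.2 per kb, where it overlapped Gmps (268 ± 73.7) and Adsl (271 ± 73.0) within 1 SD. In WT it was at 370.0 ± 87.6 and overlapped Atic, Gmps and Adsl (336 to 369.9) within 1 SD.

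**Figure D1:**
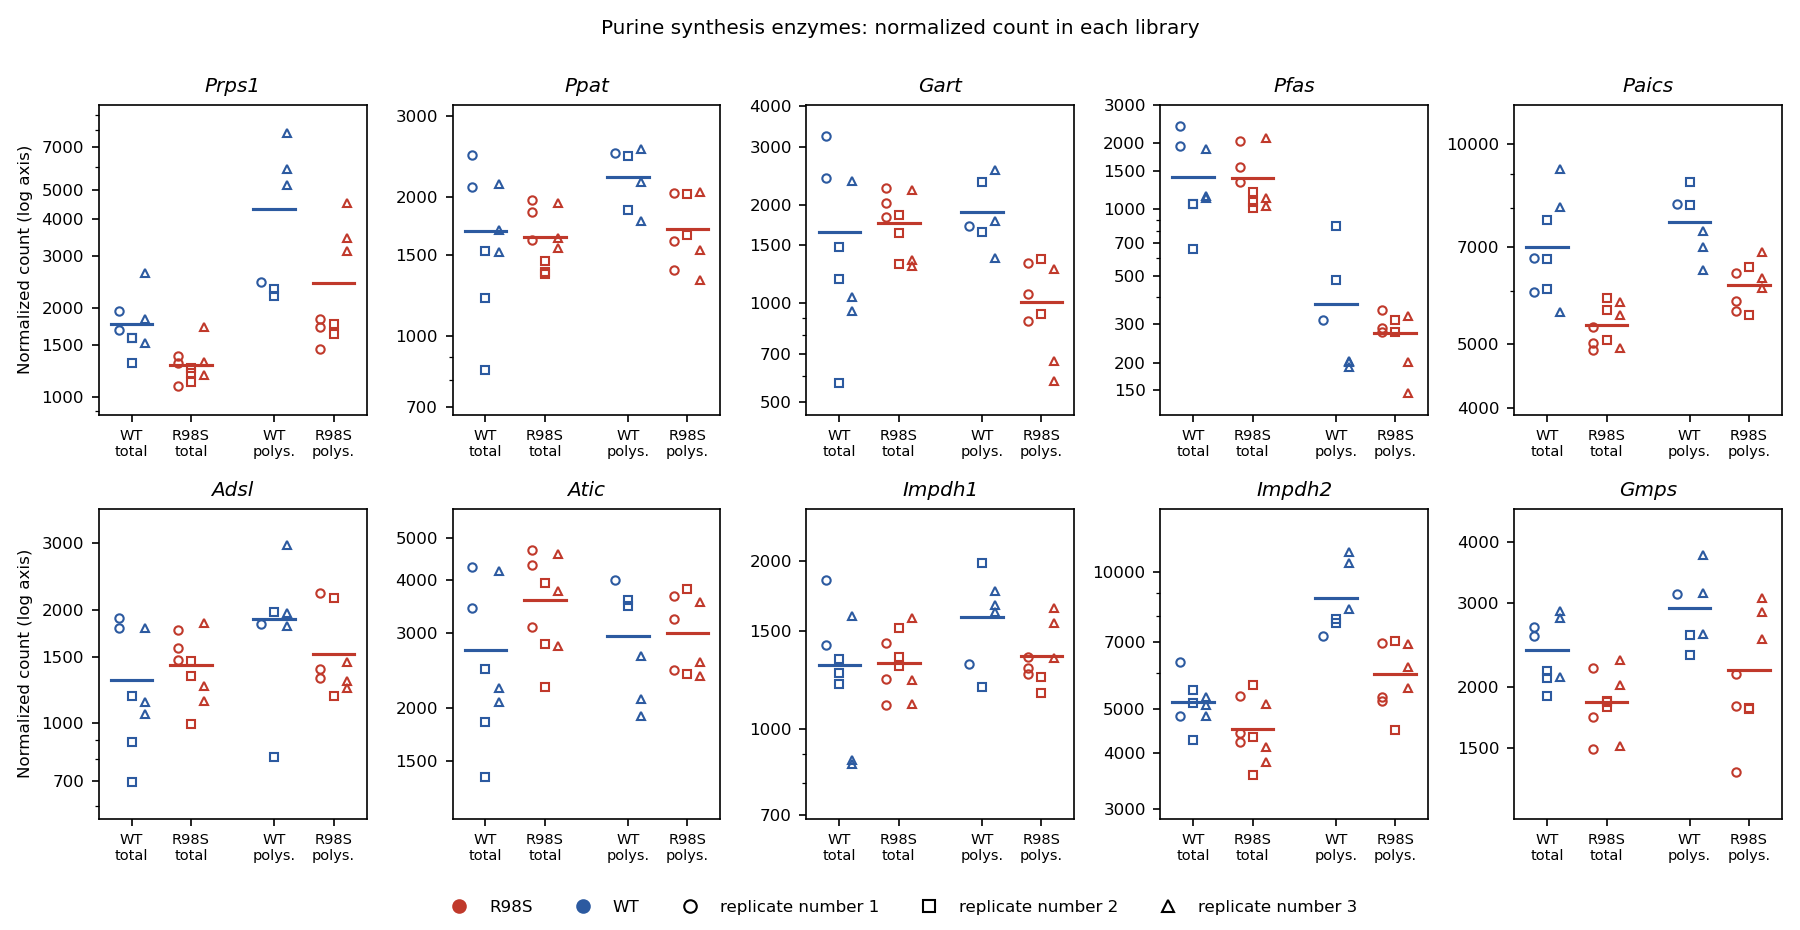
Normalized counts of the 10 enzymes (log axis, a separate range in each panel) in every total and polysomal library, with circles, squares and triangles for replicate numbers 1, 2 and 3 and bars for group means. The Gart and Impdh2 points of R98S polysomal libraries all lie below those of WT, and the share of all genes that separate in this way was not counted. The Prps1 polysomal points of number 3 lie above those of numbers 1 and 2 in both genotypes.

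In total mRNA 3 of the 10 enzymes were lower in R98S cells and 0 were higher. These were Prps1 at the entry, Paics in the middle and Gmps at the end of the GMP branch, each 1.28- to 1.35-fold lower. The background was high, since 30.3% of the 11133 genes tested were called in either direction and 15.8% were called lower at an adjusted p under 0.1 (limma with Benjamini-Hochberg adjustment), and the count of members is not far from it. The edgeR quasi-likelihood and DESeq2 Wald tests called the same 3 genes, beside 29.8% and 31.9% of all genes. Atic was the 1 other member with an unadjusted p under 0.05 in limma, which 35.4% of all genes reached. A lower level in bulk RNA cannot tell fewer cells with the mRNA from less mRNA per cell.

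Paics, which carries out the carboxylation and ligation steps after Pfas, ranged from 4890 through a median of 5305 to 5861 in R98S and from 5588 through 6714 to 9172 in WT. Only the WT library of clone 36 with number 3 (5588) fell inside the R98S range. Its log2 fold change was -0.38 ± 0.09 (SE, adjusted p = 0.0078), and it stayed called when any replicate number or clone was left out.

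Prps1 ranged from 1090 through 1258 to 1732 in R98S and from 1299 through 1633 to 2624 in WT, so that 5 of 9 R98S libraries were below all WT libraries. Its log2 fold change was -0.43 ± 0.12 (adjusted p = 0.0148), and without replicate number 1 the call was lost (adjusted p = 0.102). The highest R98S value came from clone 13 with number 3.

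Gmps, which aminates XMP to GMP, ranged from 1486 through 1868 to 2283 in R98S and from 1917 through 2359 to 2881 in WT, and 6 of 9 R98S libraries were below all WT libraries. Its log2 fold change was -0.36 ± 0.11 (adjusted p = 0.0218). This call was lost without number 1 (adjusted p = 0.140), without number 3 (0.139), without R98S clone 35 (0.116) and without WT clone 28 (0.108). The clone means of all 3 called genes were separate, with every R98S clone below every WT clone. They were also separate in polysomal RNA, where the fit without the block called none of these genes. The share of all genes with separate clone means was not counted, and these genes were picked by their call.

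The other 7 enzymes did not pass in total mRNA. Atic, which closes the ring, had the largest positive value, a log2 fold change of 0.45 ± 0.21 (adjusted p = 0.138), and was called higher once the replicate number was a block (0.41 ± 0.17, adjusted p = 0.0844). Its R98S libraries ran from 2241 through 3758 to 4698 and its WT libraries from 1377 through 2349 to 4291. The block raised the background to 38.4% in either direction and 19.9% lower, and with it 3 members were called lower and 1 higher. Impdh2 had a log2 fold change of -0.20 ± 0.10 (adjusted p = 0.150), and Gart, Adsl, Impdh1, Pfas and Ppat lay between 0.02 and 0.25.

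Gart total mRNA was spread widely in WT cells, from 571 in clone 36 with number 2 through a median of 1334 to 3231 in clone 29 with number 1. The R98S libraries, from 1298 through 1828 to 2244, all lay inside the WT range. The log2 fold change of 0.25 ± 0.27 was not called (adjusted p = 0.532), and its 95% interval ran from -0.27 to 0.78.

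Gart and Impdh2 were lower in R98S polysomal RNA, by 1.92-fold and 1.47-fold, and 0 members were higher. Of the 10707 genes tested 13.5% were called in either direction and 5.87% were called lower, beside 2 of the 10 members. An unadjusted p under 0.05 was reached by 6 members, all lower in R98S, and by 21.7% of all genes in either direction. The log2 fold change was below 0 in 9 of the 10, with a median of -0.35, where the median of all genes was -0.02.

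Gart ranged from 579 through 996 to 1367 in R98S polysomal RNA and from 1373 through 1746 to 2553 in WT. All 8 R98S libraries were thus below all 6 WT libraries, although the highest R98S value (clone 13, number 2) and the lowest WT value (clone 29, number 3) nearly met. The clone means were 730 for R98S clone 11, 886 for clone 35 and 1321 for clone 13, against 1715, 1813 and 2553 for WT clones 28, 29 and 36, the last from a single library. The log2 fold change was -0.94 ± 0.22 (adjusted p = 0.0117), and only 2.87% of the genes tested had a lower one. It stayed called when any clone or replicate number was left out.

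Impdh2 ranged from 4491 through 5867 to 7048 in R98S polysomal RNA and from 7243 through 8091 to 11048 in WT, again without overlap. The share of all genes whose libraries separate as those of Gart and Impdh2 did was not counted. The log2 fold change was -0.56 ± 0.16 (adjusted p = 0.0372). The call was lost without number 1 (adjusted p = 0.193), without number 3 (0.147), without R98S clone 11 (0.132) or 35 (0.229) and without WT clone 28 (0.104). In the transcript sequences 73.91% of the 50-base windows of Impdh2 also occur in the pseudogene Impdh2-ps, so reads between the pair may have been split or dropped.

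The polysomal level of Prps1 differed by replicate number. With numbers 1 and 2 its R98S libraries lay between 1450 and 1835 and its WT libraries between 2194 and 2456, whereas with number 3 they lay between 3115 and 4525 and between 5234 and 7802. Within each number every R98S library was below every WT library. Across all libraries the log2 fold change of -0.76 ± 0.35 was not called (adjusted p = 0.211), and with the number as a block it was -0.61 ± 0.13 (adjusted p = 0.0028).

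With the same block Ppat (-0.39 ± 0.14, adjusted p = 0.0572), Paics (-0.31 ± 0.11, 0.0460) and Gmps (-0.40 ± 0.14, 0.0535) were also called lower in polysomal RNA, and Gart (-0.97 ± 0.20, 0.0027) and Impdh2 (-0.53 ± 0.13, 0.0087) remained called. This made 6 of the 10 members lower, beside a background of 15.7% lower and 30.9% in either direction. Pfas, Adsl, Atic and Impdh1 were not called in either fit, with log2 fold changes from -0.26 to 0.05 in the fit without the block.

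**Figure D2:**
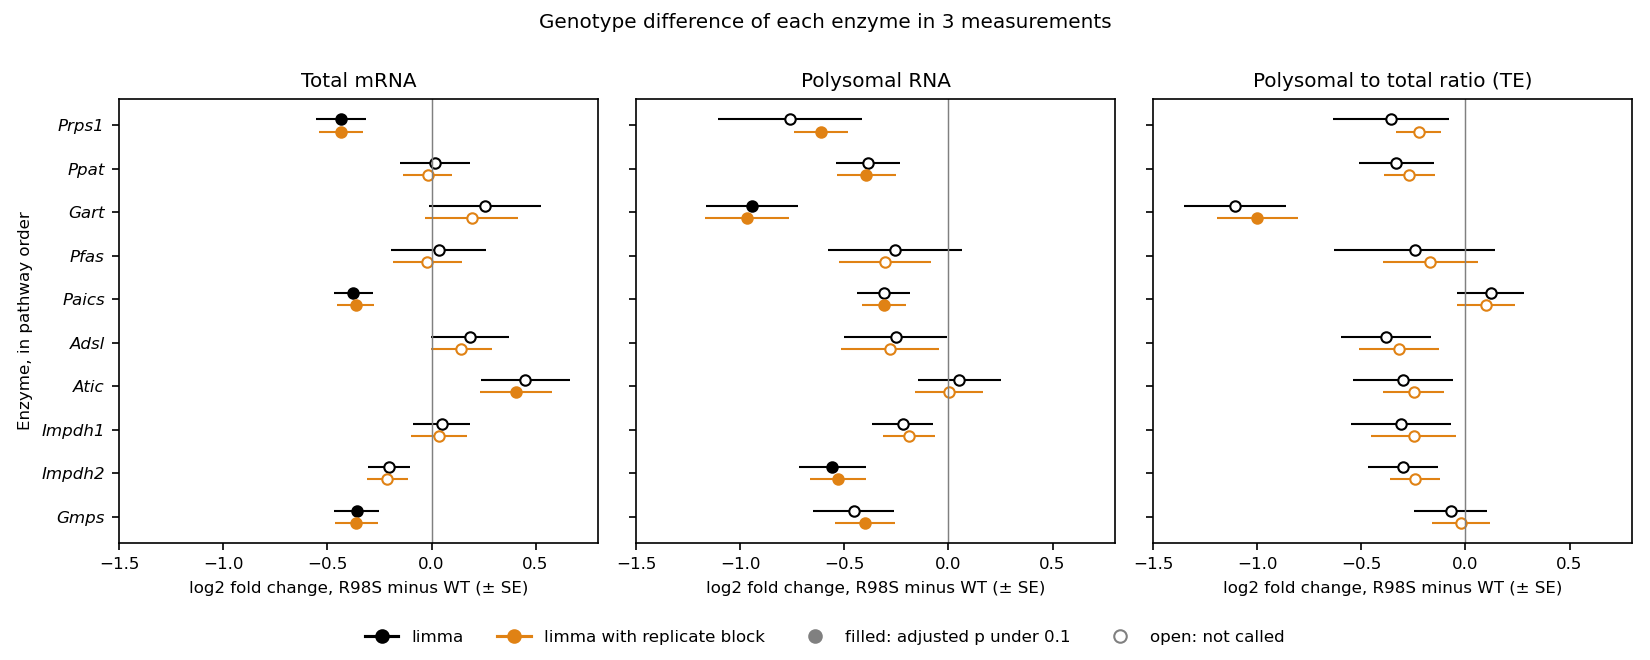
Log2 fold change of R98S against WT (points, with SE bars) for the 10 enzymes in pathway order, in total mRNA, polysomal RNA and the polysomal-to-total ratio, without (black) and with (orange) the replicate block. Filled points passed an adjusted p of 0.1, and Gart is the lowest in polysomal RNA and in the ratio, at -0.94 and -1.11 without the block.

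The polysomal-to-total ratio of a culture, called translational efficiency (TE) here, spanned a wider range over the enzymes than between the genotypes. On the log2 scale Prps1 had the highest mean TE, 0.79 ± 0.51 in R98S and 1.15 ± 0.59 in WT, which number 3 raised (means of 1.39 and 1.68). With number 2 its means of 0.46 in R98S and 0.65 in WT lay below those of Adsl (0.47) and Atic (0.72), respectively. Pfas had the lowest, -2.36 ± 0.40 in R98S and -2.12 ± 1.13 in WT (SD, n = 8 and 6). In R98S every Pfas culture, at -2.95 to -1.78, lay below every value of the other members. In WT this did not hold for clone 28 with number 2, where Pfas was at -0.33. Clone 29 with number 2 was at -1.14, and the other 4 WT cultures were at -3.23 to -2.50.

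Gart had the largest difference in TE among the members. Its log2 TE ranged from -1.22 through -0.79 to -0.44 in R98S and from -0.91 through 0.51 to 0.77 in WT. All WT cultures but 1, clone 29 with number 1 at -0.91, were above all 8 R98S cultures. The log2 fold change of -1.11 ± 0.24 did not pass adjustment (limma, adjusted p = 0.336), and 39 of the 10627 genes tested had a lower value.

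In the limma fit of TE 0 of the 10 members were called, beside 0.0376% of all genes in either direction and 0.0% lower, and Gart was the 1 member with an unadjusted p under 0.05, beside 5.96% of all genes. The edgeR quasi-likelihood test also called 0 members (0.00941% of all genes), and the DESeq2 Wald test called Gart (-1.11, adjusted p = 0.0186) beside 0.358% of all genes. With the replicate block Gart was called lower (-0.999 ± 0.19, adjusted p = 0.0423), 1 of 10 members beside a background of 0.0847% lower and 0.47% in either direction. Over 22 alternatives the adjusted p of Gart ran from 0.0186 to 0.9998 and passed in 5. The other 9 members had log2 fold changes in TE from -0.38 (Adsl) to 0.12 (Paics), and their adjusted p was at least 0.843.

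**Figure D3:**
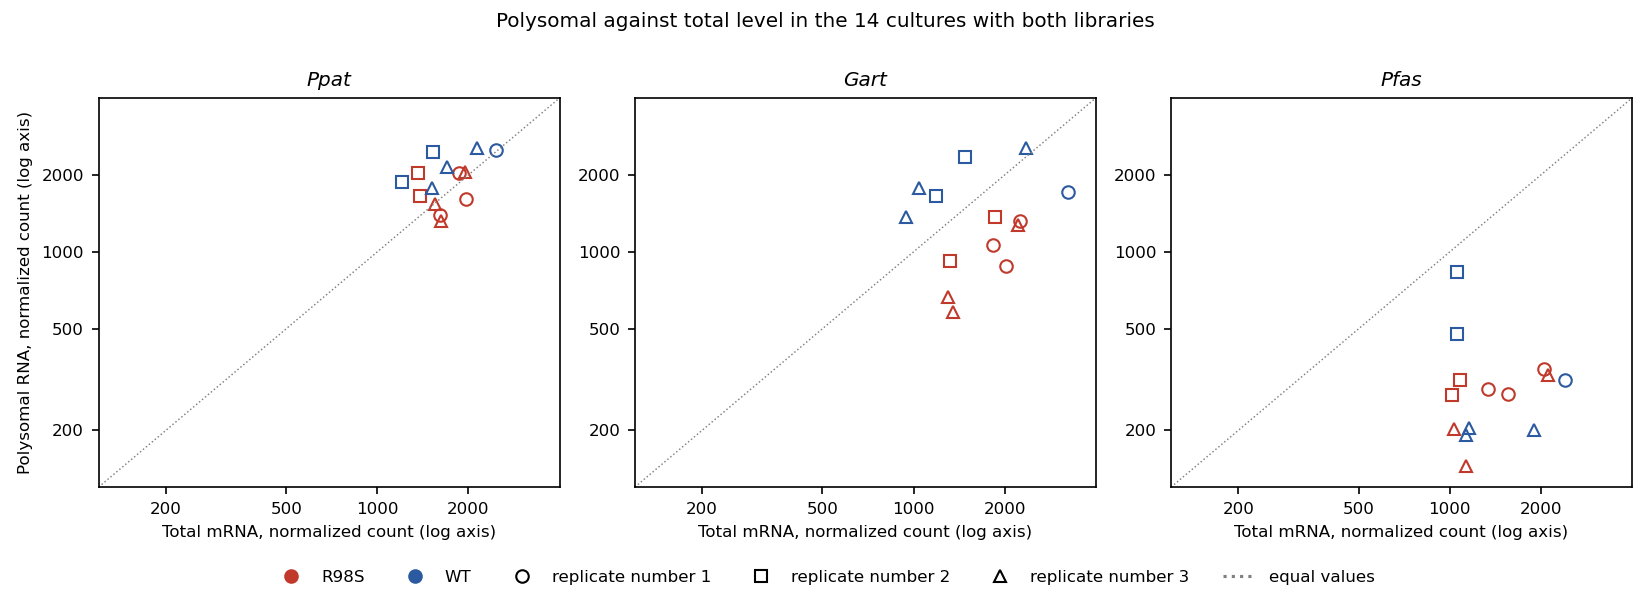
Polysomal against total normalized count (both log axes) of Ppat, Gart and Pfas in the 14 cultures with both libraries, coloured by genotype and shaped by replicate number, with a dotted line of equal values. For Gart the 8 R98S cultures and WT clone 29 with number 1 lie below the line and the other 5 WT cultures above it, whereas all Pfas points lie below it.

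Gart was then set against the enzymes next to it, Ppat before and Pfas after, as log2 ratios within a library, which do not depend on library scaling. In total mRNA the Gart-to-Ppat ratio was 0.08 ± 0.24 in R98S and -0.16 ± 0.43 in WT (SD), and the difference of 0.24 did not pass (exact two-sided permutation test, p = 0.167, adjusted p = 0.167 over the 6 tests). In polysomal RNA it was -0.79 ± 0.29 in R98S and -0.24 ± 0.20 in WT, and 7 of 8 R98S libraries were below all WT libraries. This difference of -0.56 passed (exact permutation p = 0.00233, adjusted p = 0.00699), and it was -0.082, -0.58 and -0.81 within numbers 1, 2 and 3.

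For TE the Gart-to-Ppat difference was -0.78 (exact permutation p = 0.00233, adjusted p = 0.00699). TE subtracts the total mRNA value, so this takes in the total mRNA difference of 0.24, which did not pass. The TE ratios of Gart are therefore no separate tests from those in polysomal RNA. The R98S cultures, at -1.02 to -0.56, overlapped the WT cultures, at -0.93 to 0.42, and 2 of 8 were below all WT cultures. Within number 1 the Gart-to-Ppat difference in TE was 0.14. In total mRNA the Gart-to-Pfas difference of 0.22 did not pass (exact permutation p = 0.0988, adjusted p = 0.119), but it passed when genotypes were permuted within numbers (0.21, adjusted p = 0.0969). The Gart-to-Pfas ratio differed by -0.68 in polysomal RNA (exact permutation p = 0.0653, adjusted p = 0.0979) and by -0.86 in TE (exact permutation p = 0.0440, adjusted p = 0.0879). WT polysomal libraries scattered in this ratio from 0.98 to 3.66, and R98S libraries, at 1.51 to 2.19, lay inside that range. Both Gart-to-Pfas calls were lost when single clones were left out, and without number 3 the differences were -0.04 and -0.10. The Gart-to-Ppat calls were lost only without number 3, where the differences were -0.39 and -0.46 (exact permutation, adjusted p = 0.375 for both). Over the 3 clone means of each genotype every ratio gave an exact permutation p = 0.1, the smallest that 20 permutations allow. This included the total mRNA ratios, whose clone-mean differences had the other sign (0.24 for Gart to Ppat and 0.23 for Gart to Pfas). Gart was singled out with earlier results of these data known, so these p-values are no independent support.

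Within replicate numbers the Gart difference depended on the number. In polysomal RNA its log2 fold change was -0.67, -0.81 and -1.22 within numbers 1, 2 and 3. In total mRNA it was -0.46, 0.66 and 0.25, and in TE 0.0019, -1.05 and -1.47. The value near 0 in TE belongs to number 1, where 3 R98S cultures stood against a single WT culture. That culture came from WT clone 29, whose Gart TE was -0.91 with number 1 and 0.67 and 0.54 with numbers 2 and 3. Without this clone Gart was called in TE (-1.29, limma adjusted p = 0.0846), beside 65 of 10627 genes, 17 of them lower. With any other clone or number left out Gart was not called in TE, and 0 genes were called lower.

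The enzymes called in total mRNA kept their sign within each number. Prps1 had log2 fold changes of -0.53, -0.31 and -0.48 within numbers 1, 2 and 3, Paics of -0.32, -0.30 and -0.46, and Gmps of -0.55, -0.15 and -0.43. Impdh2 was also below 0 within each number in both RNA fractions. Pfas turned with the number in polysomal RNA (-0.05, -1.10 and 0.10), where its WT libraries of number 2 reached 478 and 837 against 191 to 315 in the other WT libraries.

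**Figure D4:**
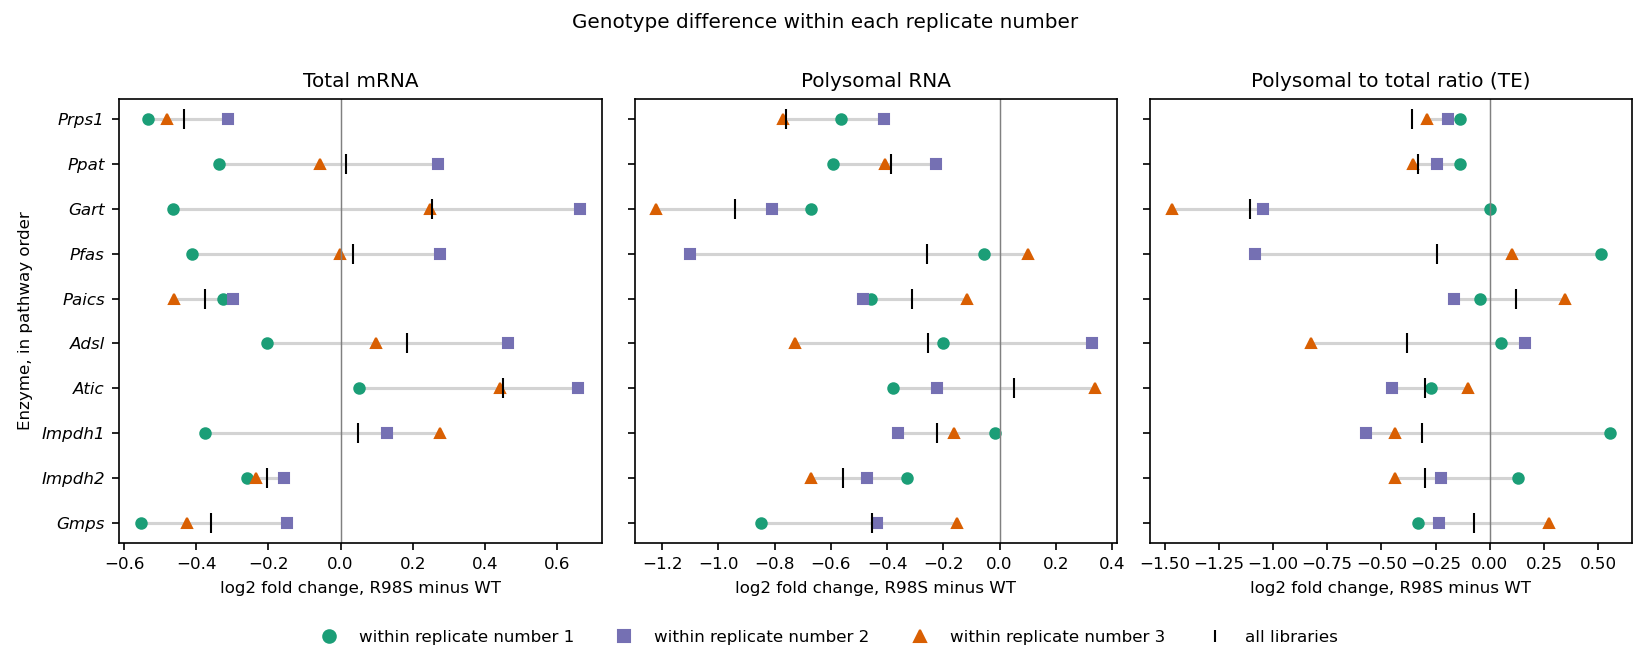
Log2 fold change of R98S against WT within replicate numbers 1, 2 and 3 (coloured points) and over all libraries (black bars) for the 10 enzymes in pathway order, with a separate range in each panel. The Gart points in polysomal RNA all lie below 0, while in the ratio the number 1 point lies at 0.0019 and those of numbers 2 and 3 at -1.05 and -1.47.

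The head-to-head pair Ppat and Paics was compared after its values had been seen. Paics was called lower in total mRNA, while the log2 fold change of Ppat was 0.02 ± 0.17. The Paics-to-Ppat log2 ratio was 1.71 ± 0.28 in R98S and 2.10 ± 0.57 in WT total mRNA, a difference of -0.39 (exact permutation p = 0.0858, and 0.0293 when genotypes were permuted within numbers). It was 0.01 within number 1, -0.57 within number 2 and -0.41 within number 3. In polysomal RNA the difference was 0.07 (exact permutation p = 0.549). In TE it was 0.45 (exact permutation p = 0.0336, and 0.0125 within numbers), and 0.09, 0.08 and 0.70 within numbers 1, 2 and 3. TE subtracts the total mRNA value, so the turned sign restates the total mRNA difference and is no separate test of it. Adjusted over the 3 comparisons, the exact permutation p was 0.129 in total mRNA and 0.101 in TE, and 0.0439 and 0.0375 when permuted within numbers. Son, across the start region from Gart, was called in none of the 3 limma fits without the block, with log2 fold changes of 0.17, 0.50 and 0.33 in total mRNA, polysomal RNA and TE. With the block it was called higher in polysomal RNA (0.41 ± 0.17, adjusted p = 0.0923). The antisense transcript Gm15964 covers 19.71% of the exonic bases of Gart, and its highest value in any library was 9.03.

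Across libraries the Gart level followed that of Ppat in both fractions. Over the 17 total mRNA libraries its Pearson r was 0.94 with Adsl, 0.90 with Pfas, 0.87 with Atic and 0.86 with Ppat, and -0.40 with Paics. Over the 14 polysomal libraries it was 0.89 with Ppat, 0.78 with Impdh2 and 0.66 with Paics, and 0.39 with Pfas. These values describe libraries that share clones, genotypes and replicate numbers. Among 8819 genes whose mean was 100 or more in each table, those most like Gart over the 31 libraries were Mrps27 (r = 0.91), Ddx51 (0.90), Armc6 (0.90), Utp15 (0.89) and Atp5a1 (0.89). Ppat ranked 12th and Paics 4209th by the same measure. Like Gart, the genes most like it were not called in total mRNA by limma. In polysomal RNA Mrps27 (-0.56, limma adjusted p = 0.0154), Armc6 (-0.82, 0.0269) and Atp5a1 (-0.46, 0.0866) were called lower. Ddx51 (-0.45, 0.102) and Utp15 (-0.34, 0.166) were not. Their log2 fold changes in TE ran from -0.96 to -0.51, and none was called. They were picked by likeness over the same libraries.

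The rest of purine metabolism had members that changed in both directions in total mRNA. The counts below stand beside 30.3% of all genes called in total mRNA and 13.5% in polysomal RNA, or 38.4% and 30.9% with the replicate block, and no list was tested against that share. Of the 9 salvage genes, which recover bases and nucleosides, 4 were called, 2 in each direction. Adenosine kinase Adk (0.74 ± 0.14, adjusted p = 0.0010) and adenosine deaminase Ada (0.87 ± 0.22, 0.0084) rose, and deoxycytidine kinase Dck fell (-0.94 ± 0.20, 0.0030). In polysomal RNA 1 of 9 was called, Dck (-0.61 ± 0.19, adjusted p = 0.0601), while edgeR and DESeq2 each called 2, 1 in each direction. The median log2 fold change of the salvage genes was -0.11 in total mRNA and -0.36 in polysomal RNA, where all genes had 0.0035 and -0.02, and with the block the polysomal median was -0.19.

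Of 22 tested genes for interconversion and breakdown, 4 rose and 7 fell in total mRNA. The AMP deaminase Ampd2 fell by 0.73 ± 0.11 on the log2 scale (adjusted p = 0.000134), and Rrm2, the small subunit of ribonucleotide reductase, fell by 1.02 ± 0.20 (0.0011). In polysomal RNA 3 of 21 were called, namely adenylate kinase Ak1 (2.43 ± 0.35, adjusted p = 0.000234) and Gmpr2 (0.48 ± 0.16, 0.0797), which rose, and Rrm2 (-0.66 ± 0.19, 0.0410), which fell. The edgeR test also called 3 of the 21, and DESeq2 called 6, of which 2 were higher and 4 lower, beside 13.5% and 17.8% of all genes. The values of Ak1 in polysomal RNA were 296 ± 167 in R98S and 50.6 ± 20.2 in WT.

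The AMP branch and PRPP supply list had 2 of 6 tested genes called in total mRNA by limma and 3 by edgeR and DESeq2. The PRPP synthetase-associated protein gene Prpsap1 rose (0.32 ± 0.09, adjusted p = 0.0129) and Adssl1, an adenylosuccinate synthase, fell (-0.54 ± 0.15, 0.0166), and in polysomal RNA 0 of the 6 were called by limma, 0 had an unadjusted p under 0.05 and 0 were called by edgeR or DESeq2. The folate genes that supply the formyl groups used by Gart and Atic had 1 of 5 called in each fraction. Mthfd1l fell in total mRNA (-0.39 ± 0.14, adjusted p = 0.0525) and Mthfd2 in polysomal RNA (-0.89 ± 0.31, 0.0893). In the parallel pyrimidine list 1 of 11 genes was called in total mRNA, the dUTPase Dut (-0.60 ± 0.11, adjusted p = 0.000556), and in polysomal RNA 0 were called by limma, edgeR or DESeq2 and 0 had an unadjusted p under 0.05 in limma. With the replicate block the polysomal counts of called genes rose to 3 of 9 for salvage, 7 of 21 for interconversion and breakdown, 3 of 5 for folate and 2 of 11 for pyrimidine synthesis, and in total mRNA to 13 of 22 for interconversion and breakdown, 2 of 5 for folate and 2 of 11 for pyrimidine synthesis. In TE 0 genes of these 5 lists were called by limma with or without the block, by edgeR or by DESeq2, and 4 had an unadjusted p under 0.05 in limma.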

How the data were processed

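Total mRNA (17 libraries) and polysomal RNA (14 libraries) were sequenced with a stranded poly(A) kit. Per the study's methods and processing notes, the authors removed the first base of each read with seqtk and rRNA and tRNA reads with Bowtie2, aligned the rest to mm10 with TopHat 2.0.11 and dropped reads of low mapping quality. The submitters' processing notes name HTSeq, a read counter, and exonic reads were counted per gene. The annotation and strand setting of the counting were not given in the sources used here. The unit of the deposited tables is a signal, namely read counts that the authors divided by the DESeq2 size factor of each library, separately for the 2 tables. Values were whole multiples of a step (100% within a tolerance of 1e-06), and on the recovered reads edgeR called 3321 genes in total mRNA, against 1450 for polysomes and 1 for TE.

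Values were transformed as log2(value + 1), and genes with a mean below 10 were dropped. The genotypes were compared by limma 3.58.1 (R 4.3.3, lmFit and eBayes with trend), with Benjamini-Hochberg adjustment over all genes tested and a threshold of 0.1, the one the study used with DESeq2. Fold changes on this scale are too small for low genes because of the pseudocount. TE was the log2 polysomal minus log2 total value of a culture. The study's Babel test of TE was not used. Fits were tested on simulated data with known changes. Ratios of 2 members were tested by exact permutation over libraries. Alternatives were pseudocount 5, no filter, TMM scaling, quantile normalization, the replicate number as a block (also with GC and length correction), clone means, each number or clone left out, fits within a number, edgeR 4.0.16 and DESeq2 1.42.0.

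The replicate numbers paired the libraries. Deviations of same-numbered R98S and WT libraries from their group means correlated over genes, for numbers 1, 2 and 3, at 0.62, 0.55 and 0.48 (total mRNA), at 0.70, 0.67 and 0.87 (polysomal RNA) and at 0.67, 0.54 and 0.81 (TE). The labels do not say what a number marks. Replicates of a clone share that clone, so p-values over libraries do not measure the spread over new clones. A chi-square of 4.36 per gene separated even the most similar pair (R98S clone 13, polysomal, numbers 1 and 2), and no library was merged.

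Exonic lengths and overlaps came from GENCODE M21 (GRCm38), promoter windows from RefSeq (GRCm38.p6). The named genes are the 10 members, Rpl10, genes that start within 1000 bases of a member on the other strand, at most 3 genes with the smallest adjusted p per list and comparison, and the 5 genes most correlated with Gart. The members and lists were chosen with earlier results of these data known.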

Additional observations from a re-analysis of the deposited data

Results flagged for a closer look

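Of 60 groups of libraries or cultures (each of the 10 enzymes in each measurement and genotype), 2 held a value set apart from its group by Dixon's criterion, where chance gives about 1 group in 20. Prps1 total mRNA was 1732 in R98S clone 13 with number 3, above 1090 to 1378 in the other 8 R98S libraries, with a gap of 0.494 of the range against a critical value of 0.493. The log2 TE of Impdh2 was 0.69 in R98S clone 35 with number 3, above 0.27 to 0.44 in the other 7 R98S cultures, with a gap of 0.584 of the range against 0.526.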

How the results depend on the processing

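The replicate block, taken because same-numbered libraries deviated together, changed the calls of Atic in total mRNA, of Prps1, Ppat, Paics and Gmps in polysomal RNA and of Gart in TE, all given above, and no other call of a member without GC and length correction. The number of members called in total mRNA was 5 with the block and GC and length correction (4155 of 10600 genes). It was 0 within number 2 (241 of 11133 genes) or 3 (1047). Brackets here and below give the count over all genes tested. In polysomal RNA it was 1 with quantile normalization (1407 of 10707 genes) or clone means (751), and 6 with the block (3307). It was 7 with the block and GC and length correction (3933 of 10198 genes). It was 0 within number 2 (321), 4 within number 3 (2234) and 4 with DESeq2 (1911). In TE it was 1 with the block (50 of 10627 genes), within number 3 (27) and with DESeq2 (38). It was also 1 with the block and GC and length correction (170 of 10126 genes). Leaving out a replicate number or clone gave 1 to 4 members in total mRNA, 1 to 5 in polysomal RNA and 0 to 1 in TE. The cause of these shifts was not tested.

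No log2 fold change of a member that was called in the limma fit without the block changed sign under the alternatives run. Among those not called, signs changed as follows. In total mRNA the log2 fold change of Ppat was -0.019 with the block, -0.0028 with the block and GC and length correction, -0.34 and -0.056 within numbers 1 and 3, -0.027 with edgeR and -0.042 with DESeq2. That of Pfas was -0.020 with the block, -0.033 with the block and GC and length correction, -0.41 and -0.0011 within numbers 1 and 3, -0.0071 with edgeR and -0.022 with DESeq2. Within number 1 Gart was at -0.46, Adsl at -0.20 and Impdh1 at -0.38, and Impdh1 was at -0.053 with the block and GC and length correction. In polysomal RNA Pfas was at 0.10 within number 3, Adsl at 0.33 within number 2, and Atic at -0.015 with the block and GC and length correction and at -0.38 and -0.22 within numbers 1 and 2. In TE within number 1 Gart was at 0.0019, Pfas at 0.51, Paics at -0.047, Adsl at 0.051, Impdh1 at 0.55 and Impdh2 at 0.13, within number 2 Paics was at -0.17 and Adsl at 0.16, and within number 3 Pfas was at 0.10 and Gmps at 0.27. Gmps was at 0.0010 in TE without the R98S libraries of number 2, an alternative chosen after seeing the data, as was leaving out the total mRNA library of WT clone 36 with number 3.

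With a number or clone left out, total mRNA values ran from -0.16 to 0.11 for Ppat, -0.0010 to 0.45 for Gart, -0.14 to 0.14 for Pfas, -0.0010 to 0.29 for Adsl and -0.088 to 0.20 for Impdh1. Polysomal values ran from -0.74 to 0.19 for Pfas, -0.53 to 0.15 for Adsl and -0.27 to 0.20 for Atic, and TE values from -0.71 to 0.27 for Pfas, -0.083 to 0.24 for Paics and -0.27 to 0.070 for Gmps.

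The Gart-to-Ppat difference was -0.13 in total mRNA within number 1. In polysomal RNA it was -0.64 over clone means, -0.082, -0.58 and -0.81 within numbers 1, 2 and 3, and -0.72 to -0.39 with a number or clone left out. In TE it was -0.79 over clone means, 0.14, -0.80 and -1.11 within numbers, and -0.99 to -0.46 with a number or clone left out. The Gart-to-Pfas difference in total mRNA was 0.21 with the block, which brought it past the threshold (exact permutation within numbers, adjusted p = 0.0969), -0.052 within number 1 and 0.14 to 0.32 with a number or clone left out. In polysomal RNA it was -0.91 over clone means, -0.62, 0.29 and -1.32 within numbers, and -1.16 to -0.041 with a number or clone left out. In TE it was -1.08 over clone means, -0.51, 0.037 and -1.57 within numbers, and -1.35 to -0.10 with a number or clone left out. Clone means and fits within a number leave too few values for an exact test to pass, so their losses of a call say nothing about stability.

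Over all genes, calls in total mRNA numbered 3369 without and 4277 with the block, and 1366, 241 and 1047 within numbers 1, 2 and 3. In polysomal RNA they numbered 1449 (820 higher, 629 lower) without and 3307 with the block. They numbered 3933 (1646 higher, 2287 lower) with the block and GC and length correction. Over clone means 751 were called, with DESeq2 1911, and within numbers 2 and 3 they numbered 321 and 2234. In TE they numbered 4 without and 50 with the block, 170 with the block and GC and length correction and 38 with DESeq2. They numbered 1 with edgeR, TMM scaling or quantile normalization, 2 with pseudocount 5 and 0 over clone means. Within numbers 2 and 3 they numbered 2 and 27. Number 1 held a single WT polysomal library, so no count within it is given for polysomal RNA or TE. Leaving out a number or clone gave 1338 to 3003, 608 to 2037 and 0 to 65 calls in the 3 comparisons.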
